A study of Mus musculus with 4 samples.

Results

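Serine proteases, most of them held at the cell surface, and Kunitz-type inhibitors of such proteases were followed in RNA of sorted mouse cells. These were alveolar type 1 (AT1) cells, the thin cells across which gas exchange takes place. The 10 genes were taken by symbol from the expression table of each of 4 libraries. They are the 8 proteases St14, Prss8, Prss22, Tmprss2, Tmprss4, Tmprss11a, Tmprss11d and Tmprss13 and the 2 inhibitors Spint1 and Spint2, and all 10 were found among 23990 genes. Every animal was on a mixed B6 and 129 background, was taken at postnatal day 3 or 4, and carried Cre recombinase under Scnn1a. For the 2 Sox2-labelled libraries the labels give the genotype Scnn1a-Cre; Rosa[Sox2/+], with a Cre-dependent Sox2 transgene. For the 2 control-labelled libraries they give Scnn1a-Cre; Rosa[mTmG/+], with a Cre-dependent membrane reporter. The level of Sox2 went against these labels, as given below. Sox2 is a transcription factor of the airway epithelium. The labels do not say whether the libraries under 1 label came from separate animals, so a p-value here speaks of the spread between libraries, which may be technical.

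These proteases are made as inactive precursors and start to work once they are cleaved. St14 (matriptase) and Prss8 (prostasin) act as a pair in epithelia, where each can activate the other, and Spint1 (HAI-1) and Spint2 (HAI-2) block both. In the lung the system is known for trimming the epithelial sodium channel, which draws fluid out of the airspace, and Tmprss2 is known for priming the spike and haemagglutinin proteins of respiratory viruses. The proteases share the trypsin fold with a reactive serine, and the inhibitors share the small cysteine-bridged Kunitz domain that plugs that site.

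The stretch of coding sequence around the reactive serine is shown for the 5 proteases that were tested, because it is the feature that joins them. Each is 30 bases of the GENCODE M21 transcript (GRCm38), 5′ to 3′, with the serine codon in capitals. In all 5 the stretch runs across an exon junction, so the coordinates enclose an intron.
St14, chr9:31090004-31090407, minus strand, exons 18 and 19: tgccagggtgacTCTggtggccccttgtca
Prss8, chr7:127926617-127926750, minus strand, exons 5 and 6: tgccagggtgacTCTgggggcccactctct
Tmprss2, chr16:97567152-97567601, minus strand, exons 12 and 13: tgccagggagacAGTggagggccgctggtt
Tmprss4, chr9:45173984-45175107, minus strand, exons 11 and 12: tgccagggtgacAGTggtgggcctttgatg
Tmprss11d, chr5:86303749-86306272, minus strand, exons 9 and 10: tgccagggtgatTCAggtggcccgctagta
The serine motif occurred once in the coding sequence of each of the 8 proteases. The serine codon was TCT in 4 of them, AGT in 3 (Tmprss2, Tmprss4 and Tmprss13) and TCA in 1. Over these 30 bases identity between 2 proteases ran from 19 bases (4 pairs, 3 of them with Tmprss13) to 26 bases (Tmprss2 and Tmprss13).

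The Kunitz signature, named as in PROSITE, was found 2 times in each inhibitor and in none of the proteases. It is shown for both because it is the feature that sets the inhibitors apart from the proteases. The codons of the cysteines at positions 6 and 19 of the signature are in capitals, and each stretch of 57 bases lies in 1 exon.
Spint1, first match, chr2:119245826-119245882, plus strand, exon 5: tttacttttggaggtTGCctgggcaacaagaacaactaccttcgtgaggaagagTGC
Spint1, second match, chr2:119248100-119248156, plus strand, exon 9: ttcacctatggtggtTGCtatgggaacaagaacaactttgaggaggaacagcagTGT
Spint2, first match, chr7:29263620-29263676, minus strand, exon 2: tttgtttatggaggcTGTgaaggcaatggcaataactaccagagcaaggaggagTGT
Spint2, second match, chr7:29258443-29258499, minus strand, exon 5: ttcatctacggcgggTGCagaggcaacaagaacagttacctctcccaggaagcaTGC
The longest coding sequences encoded 855 residues for St14, 339 for Prss8, 490 for Tmprss2, 435 for Tmprss4, 507 for Spint1 and 252 for Spint2.

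Levels are given in FPKM (fragments scaled to transcript length and to sequencing depth), which is a level per length, so genes can be compared. Between 11062 and 12096 genes reached 1 FPKM in a library. The deposited bounds around such values had a median half-width of 7.81% to 12.4%, which was wider in replicate 2 of each label. Sox2 went against its label, with 1.41 and 1.99 FPKM in the Sox2-labelled pair and 302 and 477 FPKM in the control-labelled pair. Every direction below follows the labels as deposited and runs against the level of the gene they name. Whether titles or files were exchanged between the groups was not tested. AT1 markers were present in all 4 libraries, but 9 of 10 were higher in the Sox2-labelled pair and none was lower. Their summed level was 6525 and 7508 FPKM there, against 1179 and 639 FPKM.

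Over the 12040 genes that averaged 1 FPKM or more, limma called 506 higher (4.20%) and 976 lower (8.11%) in the Sox2-labelled pair, at a Benjamini-Hochberg adjusted p under 0.05. Of the called genes 34.1% were higher, against 53.5% after median-of-ratios rescaling and 54.2% after quantile normalization. Leaving out Sox2-labelled replicate 1 gave 173 higher and 422 lower genes, and leaving out Sox2-labelled replicate 2 gave 119 and 115. Leaving out control-labelled replicate 1 gave 837 and 887, and leaving out control-labelled replicate 2 gave 399 and 1312. All tested genes together had a median log2 difference of -0.29, which moved to -0.06 and -0.04 under the 2 rescalings. Differences of the members can be read against it.

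Of the 10 members, 7 reached the filter and were tested, and 1 was higher, 1 was lower and 5 did not pass. Prss8 rose and St14 fell in the Sox2-labelled pair. The median difference of the 7 was -0.40, against -0.29 for all tested genes. The groups did not overlap in any of the 7, and this held for 58.1% of all tested genes. In 3 of them the Sox2-labelled pair was higher (15.7% of all tested genes) and in 4 lower (42.5%). Tmprss11d reached the filter only through control-labelled replicate 2, so these counts describe the tested members and support nothing further. Prss22, Tmprss13 and Tmprss11a stayed under the filter.

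**Figure D1:**
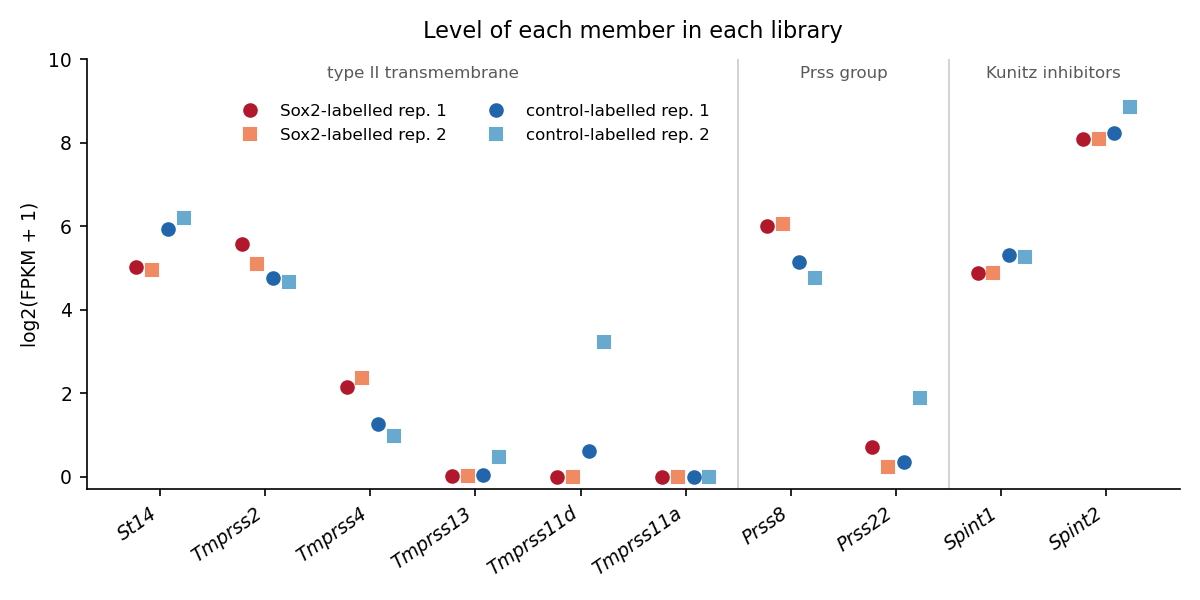
The level of each of the 10 genes, as log2(FPKM + 1) on the vertical axis, in the 4 libraries, with red and orange for Sox2-labelled and blues for control-labelled libraries. St14, Spint1, Spint2 and Tmprss11d are higher in both control-labelled libraries, while Prss8, Tmprss2 and Tmprss4 are higher in both Sox2-labelled libraries.

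St14 encodes matriptase, a type II transmembrane protease (its N-terminal end anchors it) that starts cleavage cascades on epithelial surfaces. It lies on the minus strand of chromosome 9 (mm10, 31088590 to 31131799). It stood at 31.4 and 29.8 FPKM in the Sox2-labelled pair and at 60.1 and 72.8 FPKM in the control-labelled pair. Both control-labelled libraries were thus above both others, and the deposited bounds of the 4 values did not bring the groups together (at most 32.4 against at least 58.6 FPKM). The means were 30.6 ± 1.15 and 66.4 ± 8.97 FPKM (SD, n = 2 each), 2.17-fold more in the control-labelled pair. The log2 difference was -1.09 (SE 0.31, limma adjusted p = 0.0423).

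The St14 call was close to the threshold. It was lost after median-of-ratios rescaling (log2 difference -0.81, limma adjusted p = 0.130) and quantile normalization (-0.75, adjusted p = 0.103). It was also lost without Sox2-labelled replicate 1 (adjusted p = 0.131), Sox2-labelled replicate 2 (adjusted p = 0.252) or control-labelled replicate 2 (adjusted p = 0.122). Without control-labelled replicate 1 it held (limma adjusted p = 0.0276). Most general epithelial genes moved the same way as St14. Of 8 such markers limma called 5 lower in the Sox2-labelled pair and none higher. Their summed level was 979 and 913 FPKM against 2213 and 2158 FPKM. Esrp2 went the other way without passing, at 26.9 and 29.0 FPKM in the Sox2-labelled pair against 25.9 and 22.1 FPKM. None of these markers was at 0 in any library. Their part in the St14 difference was not tested. In RNA of bulk samples, fewer cells of a type and less RNA per cell cannot be told apart.

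Prss8 encodes prostasin, a protease with a GPI anchor and the partner of matriptase, on the minus strand of chromosome 7 (127925717 to 127930113). It stood at 63.2 and 65.1 FPKM in the Sox2-labelled pair and at 34.0 and 26.1 FPKM in the control-labelled pair. The Sox2-labelled libraries lay close together and both were above the others. The means were 64.1 ± 1.37 and 30.1 ± 5.60 FPKM (SD, n = 2 each), 2.13-fold more in the Sox2-labelled pair. The log2 difference was 1.08 with an SE of 0.31 and a limma adjusted p of 0.0459. Median-of-ratios rescaling gave 1.36 (adjusted p = 0.0264) and quantile normalization 1.38 (adjusted p = 0.0173). Without Sox2-labelled replicate 1 the limma adjusted p was 0.151. Leaving out Sox2-labelled replicate 2 gave 0.271 and leaving out control-labelled replicate 2 gave 0.143, while leaving out control-labelled replicate 1 gave 0.0197.

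Prss8 shares 122 of its 1852 annotated exon bases with Kat8, a histone acetyltransferase gene on the opposite strand. The tables are not stated to use strand, so reads from those bases cannot be told apart. Kat8 itself stood at 5.63 and 2.65 FPKM in the Sox2-labelled pair and at 9.05 and 3.93 FPKM in the control-labelled pair, which overlap.

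Tmprss2 encodes a type II transmembrane protease of lung and prostate epithelium, on the minus strand of chromosome 16 (97564682 to 97611195). Its values were 46.6 and 33.0 FPKM in the Sox2-labelled pair and 26.2 and 24.5 FPKM in the control-labelled pair. Both Sox2-labelled libraries were above the others, but they differed from each other by more than the gap to the control libraries. The log2 difference of 0.61 (SE 0.32) did not pass (limma adjusted p = 0.235), with means of 39.8 ± 9.66 and 25.3 ± 1.22 FPKM (SD, n = 2 each). Quantile normalization put it past the threshold (0.95, limma adjusted p = 0.0373), while median-of-ratios rescaling left it short (0.89, adjusted p = 0.0538).

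Tmprss4, a type II transmembrane protease able to cleave the sodium channel when expressed together with it, lies on the minus strand of chromosome 9 (45172726 to 45204075). It was a low gene, at 3.47 and 4.19 FPKM in the Sox2-labelled pair and 1.39 and 0.953 FPKM in the control-labelled pair. The groups were apart, with deposited bounds of at least 3.01 FPKM on one side and at most 1.71 FPKM on the other. The mean was 3.27-fold higher in the Sox2-labelled pair (3.83 ± 0.512 against 1.17 ± 0.309 FPKM, SD, n = 2 each), the largest fold of the members at or above 1 FPKM in every group mean. Its log2 difference of 1.16 (SE 0.39) did not pass (limma adjusted p = 0.0761). It passed under median-of-ratios rescaling (1.36, adjusted p = 0.0363) and quantile normalization (1.30, adjusted p = 0.0420). Of its 2589 annotated exon bases 412 overlap an antisense gene, Gm17099, whose reads cannot be told apart either.

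Markers of alveolar type 2 (AT2) cells, the surfactant-making neighbours, moved with Prss8, Tmprss2 and Tmprss4. So did the AT1 markers given above (9 of 10 higher, none lower). All 8 AT2 markers were higher in the Sox2-labelled pair, and their summed level was 24838 and 17197 FPKM against 5884 and 937 FPKM. In every library this sum was above that of the AT1 markers, although the libraries are labelled as sorted AT1 cells. This order rests on Sftpc, which held most of the AT2 sum, at 21174.7 and 14800.5 FPKM against 5003 and 796 FPKM. None of the AT2 markers was at 0 in a library. Leukocyte markers moved the same way in part (2 of 5 tested were higher), at 1149 and 845 FPKM in sum against 258 and 65.3 FPKM. The called ones were Lyz2, which AT2 cells also make and which accounted for most of this sum, and Csf1r, a macrophage receptor, with 27.7 and 25.2 FPKM in the Sox2-labelled pair and 3.02 and 1.03 FPKM in the other (limma adjusted p = 0.00112). Ptprc, the pan-leukocyte marker, overlapped between the labels, from 0.566 to 3.22 FPKM. Of 8 endothelial markers 2 were higher and none was lower, and they summed to 137 and 65.5 FPKM against 45.6 and 20.1 FPKM. Of 8 mesenchymal markers 1 was higher and none was lower, with sums of 419 and 218 FPKM against 194 and 65.3 FPKM. Ciliated cell markers (2 of 5 higher, none lower) summed to 588 and 595 FPKM against 194 and 83.2 FPKM. Club cell markers (1 of 3 tested higher, none lower) summed to 3527 and 6018 FPKM against 1944 and 2156 FPKM. Most of this sum was Scgb1a1, at 3263 and 5594 FPKM against 1796 and 1730 FPKM, which did not pass (limma adjusted p = 0.0629). Cyp2f2 overlapped between the labels, at 94.3 and 107 FPKM against 72.6 and 376 FPKM, with a log2 difference of -0.71 that did not pass. In these lists the club marker Scgb3a1 was the one gene listed at 0 in a library. The part of all these cells in the values of the 3 proteases was not tested.

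**Figure D2:**
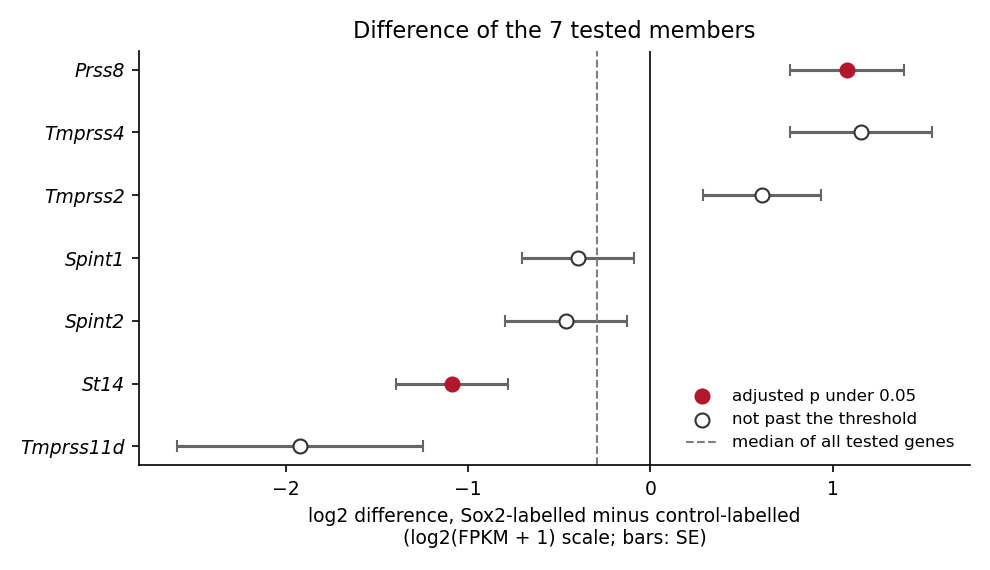
Log2 difference of the 7 tested members, Sox2-labelled minus control-labelled, on the log2(FPKM + 1) scale, with bars for the SE from limma, filled points for an adjusted p under 0.05 and a dashed line at the median of all tested genes (-0.29). Prss8 (1.08) and St14 (-1.09) are the filled points and lie on opposite sides, and both inhibitors lie near the dashed line.

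Of the 7 tested members the inhibitors had the smallest log2 differences, and neither passed. Spint1, on the plus strand of chromosome 2 (119237360 to 119249513), encodes HAI-1, the membrane inhibitor that binds active matriptase. It stood at 28.4 and 28.6 FPKM in the Sox2-labelled pair and at 38.5 and 37.3 FPKM in the control-labelled pair. The values within a label lay close together (SD 0.168 and 0.821 FPKM, n = 2 each), and the groups did not overlap. The log2 difference of -0.40 (SE 0.31) did not pass (limma adjusted p = 0.423) and lay close to the median of all genes. After median-of-ratios rescaling it was -0.12.

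Spint2, on the minus strand of chromosome 7 (29256330 to 29281977), encodes HAI-2, an inhibitor of matriptase and prostasin. It was the most abundant member in every library, above 99.2% to 99.5% of all genes. It stood at 269 and 272 FPKM in the Sox2-labelled pair and at 301 and 464 FPKM in the control-labelled pair. Control-labelled replicate 2 stood above the other 3, which lay between 269 and 301 FPKM. The log2 difference of -0.46 (SE 0.33) did not pass (limma adjusted p = 0.389), and it was -0.15 without control-labelled replicate 2 and -0.77 without control-labelled replicate 1. Spint2 made up 88.7% to 92.6% of the summed inhibitor level in the 4 libraries, so its share of the pair was similar under both labels.

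Tmprss11d encodes the airway trypsin-like protease, a type II transmembrane protease of conducting airways and squamous linings, on the minus strand of chromosome 5 (86302854 to 86373387). It is listed at 0 in both Sox2-labelled libraries and stood at 0.525 and 8.42 FPKM in the control-labelled pair. It was therefore seen in the control-labelled pair alone, and 1 of them carried nearly all of it. The log2 difference was -1.92 (SE 0.67) and did not pass (limma adjusted p = 0.0851). Without control-labelled replicate 1 it was -3.24, which sets 1 library against 2 at 0, so the p of that fit is not read. Without control-labelled replicate 2 it was -0.61 (limma adjusted p = 0.123). A pseudocount of 0.1 FPKM gave -4.53 (adjusted p = 0.0563).

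The summed levels of squamous, basal and mucous cell markers were also highest in control-labelled replicate 2. The 6 squamous markers summed to 2.68 and 2.31 FPKM in the Sox2-labelled pair and to 29.0 and 173 FPKM in control-labelled replicates 1 and 2. Of 4 tested, 3 were lower in the Sox2-labelled pair. The 6 basal markers summed to 2.37 and 1.70 FPKM against 45.5 and 167 FPKM, and 2 of 3 tested were lower. The lower ones were Dapl1, at 0.234 and 0 FPKM against a mean of 95.8 ± 76.7 FPKM (SD, n = 2), and Trp63, the basal cell transcription factor, at 0.0605 and 0.0293 FPKM against 2.38 and 14.4 FPKM. The third tested one, Krt15, did not peak in control-labelled replicate 2, at 1.75 and 1.60 FPKM against 1.46 and 1.43 FPKM. Krt14 and Ngfr, both under the filter, were highest in Sox2-labelled replicate 1, at 0.101 and 0.230 FPKM. Krt5, Krt14, Krt6a and Sprr3 were each at 0 in at least 1 library, and Krt5 did not exceed 0.686 FPKM. The 5 mucous markers summed to 0.717 and 1.18 FPKM against 5.95 and 19.0 FPKM. Both that were tested, Muc5ac and Agr2, were lower in the Sox2-labelled pair. Of those under the filter, Spdef went the other way, at 0.309 and 0.513 FPKM against 0.155 and 0.255 FPKM. Foxa3 overlapped between the labels, at 0.0962 and 0.349 FPKM against 0.117 and 0.0564 FPKM. The part of such cells in the Tmprss11d values was not tested.

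The promoter of Tmprss11d is shown because it is the member seen under 1 label only. The window runs from 250 bases before to 50 after the RefSeq start site (GRCm38.p6, chr5:86373338-86373637, minus strand). The capitals mark the match to ACAAT, the core bound by SOX factors, read here as ATTGT on the strand shown.
Tmprss11d: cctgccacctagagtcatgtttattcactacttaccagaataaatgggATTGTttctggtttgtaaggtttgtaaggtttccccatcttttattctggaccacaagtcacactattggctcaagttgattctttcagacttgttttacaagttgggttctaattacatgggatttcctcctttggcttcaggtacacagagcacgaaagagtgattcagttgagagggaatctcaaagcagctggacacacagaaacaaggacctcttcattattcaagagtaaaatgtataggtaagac
The match begins 202 bases before the start site. RefSeq windows were matched for 5 members (Spint1, Spint2, Tmprss2, Tmprss11a and Tmprss11d), and this was the one match to ACAAT on either strand among them. Of 32851 windows of 300 bases over all genes, 31.0% held it. The grainyhead consensus AACCGGTT, a site of factors that act in surface epithelia, was in 0.146% of all windows and in none of the 5.

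The other 3 members were low. Prss22, a tryptase-like protease described in airway epithelium, lies on chromosome 17 (23993534 to 23998100). It stood at 0.628 and 0.171 FPKM in the Sox2-labelled pair and at 0.287 and 2.72 FPKM in the control-labelled pair. The groups overlapped, and the high value was that of control-labelled replicate 2. Its mean over the 4 libraries, 0.950 FPKM, fell just under the filter. Tmprss13, a protease of the skin barrier 115 kb from Tmprss4 on chromosome 9 (45319100 to 45347580), stood between 0.0194 and 0.0236 FPKM in 3 libraries and at 0.392 FPKM in control-labelled replicate 2. The lower deposited bound was 0 in those 3 libraries. Tmprss11a, the neighbour of Tmprss11d at 37.0 kb on chromosome 5 (86410410 to 86468990), is listed at 0 in all 4 libraries. Prss22, Tmprss13 and Tmprss11d thus had their highest value in the same library, control-labelled replicate 2. In that library microRNA and small nucleolar RNA genes (symbols starting with Mir or Snor) summed to 367471 FPKM, against 16835 to 94467 FPKM in the other 3, and the part of this in the low members was not tested.

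Ratios between members within a library do not depend on how the library was scaled. St14 over Prss8 was 0.497 and 0.458 in the Sox2-labelled pair and 1.77 and 2.79 in the control-labelled pair, so the order of the pair was reversed. The mean ratio was 4.77 times higher in the control-labelled pair. Since St14 and Prss8 were the 2 members that passed, this ratio and the others that hold either of them describe their calls. Such ratios are not further support for the calls. With 2 against 2 libraries an exact permutation test cannot give a two-sided p below 0.333, so no ratio was tested.

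Set against Spint1, the inhibitor of similar abundance, St14 stood at 1.11 and 1.04 in the Sox2-labelled pair and at 1.56 and 1.95 in the control-labelled pair. Prss8 over Spint1 was 2.22 and 2.27 against 0.884 and 0.700, and Tmprss2 over Spint1 was 1.64 and 1.15 against 0.681 and 0.656. Spint2 over Spint1 overlapped between the labels, at 9.49 and 9.52 against 7.83 and 12.4.

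**Figure D3:**
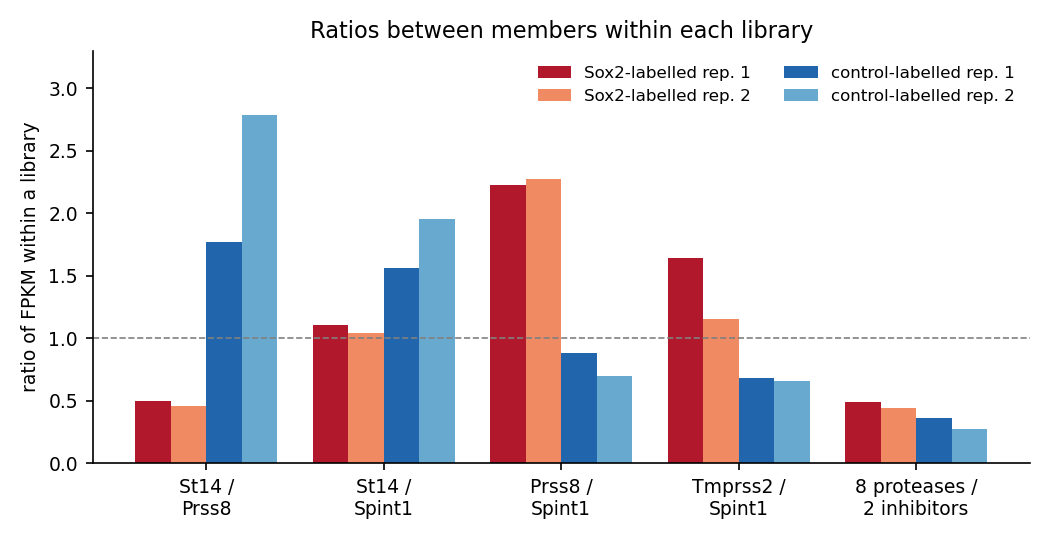
Ratio of FPKM between members within each library, on a linear axis from 0, with 1 bar per library and a dashed line at 1. St14 over Prss8 is below 1 in both Sox2-labelled libraries (0.497 and 0.458) and above 1 in both control-labelled libraries (1.77 and 2.79). Prss8 over Spint1 shows the opposite order, and Prss8 enters both ratios.

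The summed level of the 8 proteases overlapped between the labels, at 145 and 132 FPKM in the Sox2-labelled pair and 123 and 136 FPKM in the control-labelled pair. The shares of its 3 most abundant members did not overlap, while that of Prss22 did. St14 held 21.6% and 22.5% of the sum in the Sox2-labelled pair and 49.0% and 53.6% in the control-labelled pair. Prss8 held 43.5% and 49.2% against 27.8% and 19.2%, and Tmprss2 32.1% and 24.9% against 21.4% and 18.0%. The leading protease was thus Prss8 under one label and St14 under the other. Proteases over inhibitors, as sums, were 0.488 and 0.439 against 0.361 and 0.271.

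**Figure D4:**
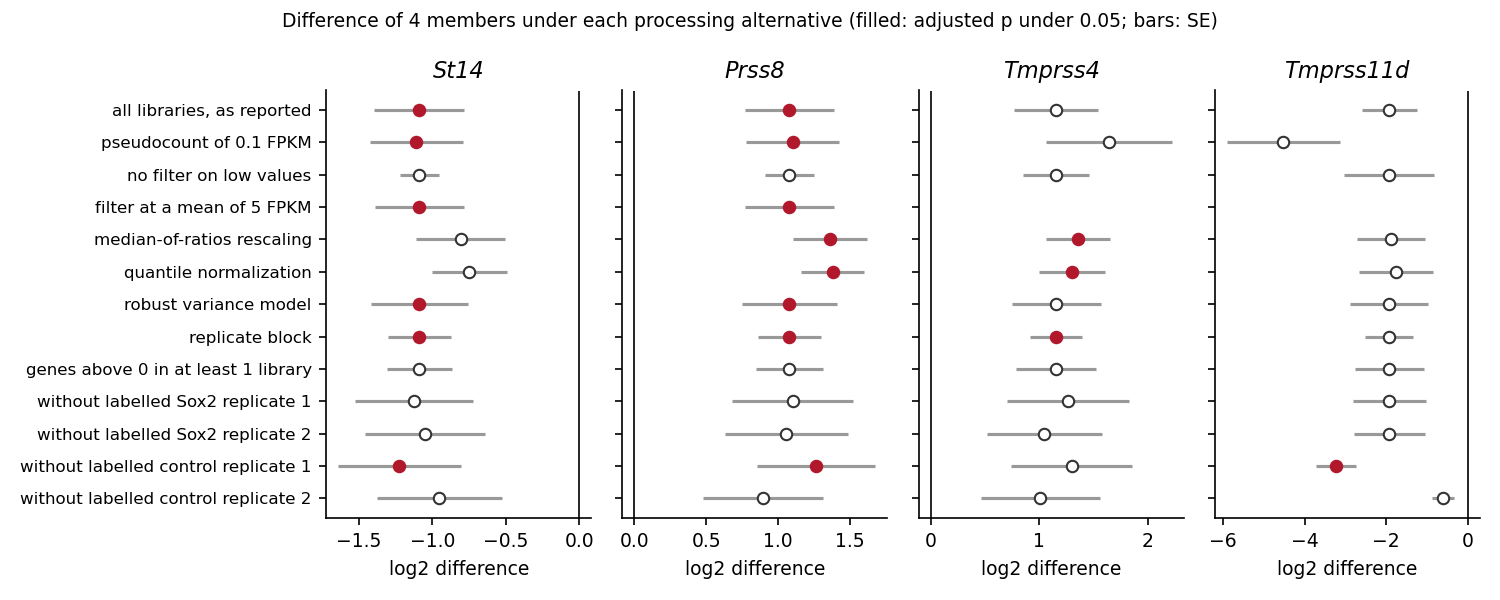
Log2 difference of St14, Prss8, Tmprss4 and Tmprss11d, Sox2-labelled minus control-labelled, under each processing alternative, with bars for the SE and filled points for an adjusted p under 0.05. No difference of these 4 changes sign, but St14 and Prss8 each lose the call without either Sox2-labelled library, and Tmprss11d spans -4.53 to -0.61. Its filled point sets 1 library against 2 at 0.

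Profiles over the 4 libraries were compared by the Euclidean distance of centred log2(FPKM + 1) values, as a description. Prss8 and Tmprss4 were each other's nearest member (0.16), as were Spint1 and Spint2 (0.47). The nearest member to Tmprss2 was Prss8 (0.63) and the nearest to St14 was Spint2 (0.68). Tmprss11d stood farthest from the rest, at 1.86 from St14. Of all tested genes, those nearest to Spint2 were Tex264 (0.02), Ccdc64b (0.06) and Mpv17l2 (0.06).

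Other genes of the family were mostly low. Of 14 other type II transmembrane proteases 13 were in the tables and 1, Hpn, reached the filter. Hpn (hepsin), a protease best known from liver, stood at 10.6 and 11.6 FPKM in the Sox2-labelled pair and at 9.67 and 11.1 FPKM in the control-labelled pair, which overlap (limma adjusted p = 0.899). Tmprss7, the next most abundant, did not exceed 0.532 FPKM. Of 6 other membrane-held trypsin-like proteases none reached the filter, and the most abundant, Prss41 and Prss30, did not exceed 0.352 and 0.116 FPKM.

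Other genes with a Kunitz domain were tested in part. Of 15 such genes 4 were tested, 1 was higher in the Sox2-labelled pair and 3 did not pass. The values are per gene and do not show which transcripts carry the domain or whether they act as inhibitors. The higher one was App, the amyloid precursor, with 773 and 742 FPKM in the Sox2-labelled pair and 343 and 258 FPKM in the other (log2 difference 1.35, limma adjusted p = 0.0242). The median log2 difference of the 4 was 0.95, against -0.29 for all tested genes. The 3 that did not pass, Aplp2 (0.55), Tfpi (-0.12) and Col6a3 (1.42), each overlapped between the labels.

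Substrates and partners went both ways. Of 17 genes 11 were tested, 3 were higher and 2 lower in the Sox2-labelled pair, and 6 did not pass, with a median of 0.05. The sodium channel subunits were the 3 higher ones. Scnn1a stood at 108 and 146 FPKM against 36.9 and 38.2 FPKM, Scnn1b at 67.9 and 61.4 against 6.37 and 1.40 FPKM, and Scnn1g at 170 and 169 against 13.7 and 2.18 FPKM. The lower ones were Epcam, an adhesion protein cut by matriptase, at 84.7 and 55.0 FPKM against 251 and 256 FPKM, and the tight junction gene Cldn7, its binding partner, at 112 and 94.6 FPKM against 202 and 250 FPKM. F2rl1, the protease-activated receptor downstream of matriptase, overlapped between the labels with 14.3 and 11.4 FPKM in the Sox2-labelled pair and 13.3 and 11.2 FPKM in the other (limma adjusted p = 0.928).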

How the data were processed

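For each of the 4 libraries of sorted AT1 cells the deposited table holds FPKM values and their bounds, per the file headers. The submitters' processing notes name the build mm10 with TopHat2 and Bowtie2 and with Cufflinks and Cuffdiff. The sources used here do not give versions, annotation or strand setting. No counts were used, so absolute depth is unknown and no counting interval is given. A further table holds 2 value columns that no label ties to a group, and it was not used.

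Entries of the same symbol were added (267 genes) and Rn45s, marked as failed, was left out. The 12040 genes averaging 1 FPKM or more were tested on log2(FPKM + 1) with limma 3.58.1 (R 4.3.3; lmFit, eBayes with trend), Sox2-labelled minus control-labelled, two-sided, with p adjusted over all of them (Benjamini-Hochberg) and called under 0.05. This scale understates folds of low genes. Each gene had 2 residual degrees of freedom before moderation. The fit was tested on simulated data.

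The members and lists were chosen with earlier results of these data known. Named are Sox2, the 10 members, from each list up to 4 genes past the threshold with the largest difference (if none passed, its 2 most abundant), and the nearest profiles. Not all genes so selected from the cell type lists are printed, and 1 further list of inhibitors is not reported here. Cldn7, F2rl1, Ptprc, Sftpc, Scgb1a1, Cyp2f2, Scgb3a1, Krt5, Krt14, Krt15, Ngfr, Sprr3, Spdef, Foxa3, Esrp2, Aplp2, Tfpi, Col6a3, Kat8 and Gm17099 lie outside this rule. They were named after their values or positions were seen. Positions come from the deposited tables with the start counted from 1, coding stretches from GENCODE M21 and promoters from RefSeq, both GRCm38. The alternatives were another pseudocount, 2 other filters, 2 rescalings, a robust variance model, a replicate block and leaving out each library.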

Additional observations from a re-analysis of the deposited data

How the results depend on the processing

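Of 82 recomputed differences of the 7 tested members, 65 kept their direction and their side of the threshold, 12 kept the direction but missed it (7 for St14, 5 for Prss8), 5 passed it anew (3 for Tmprss4, 1 each for Tmprss2 and Tmprss11d, the last with 1 library against 2 at 0 and so not read), and 0 were reversed. Without any filter the limma calls came to 0 higher and 0 lower genes, and 0 members in either direction, with 1145 and 2467 genes at an unadjusted p under 0.05. Keeping genes above 0 in at least 1 library, chosen after seeing the data, gave 0 higher and 3 lower genes and 0 members (1251 and 2618 unadjusted). St14 had a limma adjusted p of 0.211 and 0.102 in these fits, and Prss8 0.213 and 0.109. Median-of-ratios rescaling gave 882 higher genes, 2 members higher and 0 lower. Quantile normalization gave 980 higher genes, 3 members higher and 0 lower.

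With the replicate block limma called 1142 genes higher and 2730 lower, with 2 members higher (Tmprss4 at an adjusted p of 0.0194) and 1 lower. The labels do not say that equal numbers share a litter or day; the deviations of equal numbers correlated at 0.234 across genes. With 1 library left out the counts ran from 119 to 837 higher and from 115 to 1312 lower genes, and from 0 to 1 members higher and 0 to 2 lower; a lone library is then assumed to vary like the others. Both member calls held with the pseudocount of 0.1 FPKM (492 and 990 genes), the robust model (603 and 1350), the filter at a mean of 5 FPKM (367 and 739), the replicate block and without control-labelled replicate 1, and under no other alternative. Tmprss4 and Tmprss11d could not be tested with the filter at 5 FPKM. Absolute depth is unknown, and the lower deposited bound of Tmprss13 was 0 in 3 libraries.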
